A study of Rattus norvegicus with 6 samples.

Results

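Mesothelial nuclei were taken from single-nucleus RNA sequencing of the rat ileum as the nuclei that held UMIs (unique molecular identifiers, 1 per captured transcript) of at least 2 of the 3 genes Msln, Upk3b and Wt1. Of 90461 barcodes in 6 libraries, 40970 had at least 1200 UMIs, at least 500 genes and at most 5% mitochondrial UMIs, and 78 of these met the rule, which was 0.190% of passing nuclei. The rats were wild type male Sprague-Dawley animals of 6 weeks, kept for 7 days before use, and 1 library was made per rat. Severe acute pancreatitis (SAP) was induced in 3 rats by retrograde infusion of 3% sodium taurocholate through the pancreatic duct at 0.1 mL per 100 g of body weight and 0.1 mL per min, with a clamp left on for 5 min. The 3 control rats (CON) had a sham laparotomy with no infusion. Ileum was taken from both groups at 24 h, after mesenteric fat had been trimmed off and segments with Peyer's patches avoided, and all 6 libraries carry the same batch label.

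The mesothelium is the single sheet of flattened cells that covers the outer, peritoneal face of the gut. It arises from mesoderm but keeps epithelial traits such as keratins and apical-basal polarity, and it spreads a film of mucin-like glycoproteins and hyaluronan that lets loops of bowel slide over one another. Mesothelial cells also respond to inflammation in the peritoneal cavity, with complement proteins, protease inhibitors and cytokine receptors among their known products. Of the rule's genes, Msln encodes mesothelin, a surface protein that binds the mucin of Muc16, Upk3b encodes a uroplakin that is shared by urothelium and mesothelium, and Wt1 encodes a zinc finger transcription factor of the coelomic lining.

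The promoters of genes on which the description turns are printed next, since several of these genes were found together in the same nuclei. By mean level over libraries, Bnc1 and Gpm6a had the largest ratios to other nuclei among genes outside the rule. The promoters are those of these genes, of Upk3b and Wt1 from the rule, and of Timp1, which was highest in SAP_3. Each is the stretch of 250 bases upstream of the start that RefSeq annotates on GRCr8, 5′ to 3′ on the gene's strand, and capitals mark the letters GGAATG. For Wt1 and Timp1 the start used by the table is not the outer end of the annotated gene, so other starts of these genes are not covered.
Upk3b, chr12:26274241-26274490, minus strand: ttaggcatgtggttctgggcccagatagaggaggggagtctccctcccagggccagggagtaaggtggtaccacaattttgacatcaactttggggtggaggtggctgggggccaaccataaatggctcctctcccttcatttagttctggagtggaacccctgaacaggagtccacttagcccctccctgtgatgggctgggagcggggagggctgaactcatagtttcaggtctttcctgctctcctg
Wt1, chr3:112021759-112022008, plus strand: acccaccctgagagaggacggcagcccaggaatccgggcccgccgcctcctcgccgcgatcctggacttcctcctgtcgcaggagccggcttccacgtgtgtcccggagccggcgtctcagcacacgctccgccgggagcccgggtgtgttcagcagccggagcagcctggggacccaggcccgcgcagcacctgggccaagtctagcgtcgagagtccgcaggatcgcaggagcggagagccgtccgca
Bnc1, chr1:145352535-145352784, minus strand: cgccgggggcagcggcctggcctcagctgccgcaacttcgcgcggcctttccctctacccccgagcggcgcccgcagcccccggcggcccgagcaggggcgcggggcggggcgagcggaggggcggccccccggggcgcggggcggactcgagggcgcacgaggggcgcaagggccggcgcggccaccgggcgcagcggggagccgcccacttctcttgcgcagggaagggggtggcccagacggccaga
Gpm6a, chr16:43706462-43706711, minus strand: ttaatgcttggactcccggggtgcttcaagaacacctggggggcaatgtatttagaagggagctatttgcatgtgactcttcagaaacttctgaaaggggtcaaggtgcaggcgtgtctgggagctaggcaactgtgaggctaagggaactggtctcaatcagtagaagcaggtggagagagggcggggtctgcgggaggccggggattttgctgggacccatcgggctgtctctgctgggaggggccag
Timp1, chrX:3771123-3771372, minus strand: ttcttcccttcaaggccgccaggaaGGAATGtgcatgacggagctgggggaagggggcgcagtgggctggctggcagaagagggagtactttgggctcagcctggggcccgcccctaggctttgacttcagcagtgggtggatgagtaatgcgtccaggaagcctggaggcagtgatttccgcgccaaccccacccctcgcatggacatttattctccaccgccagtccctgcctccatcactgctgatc
Motifs were searched on both strands of 33469 such stretches. GGAATG, the core bound by TEAD factors, was in 12.1% of them and was found once here, in the Timp1 stretch. The TATA box letters TATAAA were in 12.9% of all stretches and in none of these 5. For GCGTGGG, a core shared by WT1 and EGR factors, the share was 3.68%, again with none here. The STAT-type letters TTCNNNGAA were in 7.67% and in none here. The GC content was 82% for Bnc1, 71.6% for Wt1, 61.2% for Timp1, 56.8% for Gpm6a and 56.4% for Upk3b.

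Before the results, 4 features of the libraries have to be stated. The libraries CON_2 and SAP_1 listed barcodes down to 545 and 502 UMIs, with 26.2% and 12.2% of barcodes passing, whereas the others listed none below 1000 and passed 76.4% to 79.9%. The single SAP_2 nucleus that met the rule had 8734 UMIs, met an enterocyte gate (at least 2 of Anpep, Cubn and Apob) and had no UMI of 16 other mesothelial genes, so that its other transcripts went against the label. Among members, 10 had over 10000 UMIs, all were in CON_1, 9 of them met the gate of another cell type, and they held 51.3% of all member UMIs. Barcode names are serial numbers within a library, and although 5398 of 34979 names occurred in more than 1 library, no name was shared between members of different libraries.

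The number of mesothelial nuclei was uneven among rats (the plot of number and share per library). CON_1 gave 49 of 9246 passing nuclei, CON_2 gave 2 of 6260, CON_3 gave 20 of 8414, SAP_1 gave 0 of 3189, SAP_2 gave 1 of 5968 and SAP_3 gave 6 of 7893. The shares were 0.530% in CON_1 (95% exact interval 0.392% to 0.700%), 0.0319% in CON_2 and 0.238% in CON_3. They were 0.0168% in SAP_2 and 0.0760% in SAP_3 (0.0279% to 0.165%), and the 0 of 3189 nuclei of SAP_1 allows a share of up to 0.0941% by a limit of 3 counts and 0.116% by the exact interval. These intervals and limits cover counting error only.

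**Figure D1:**
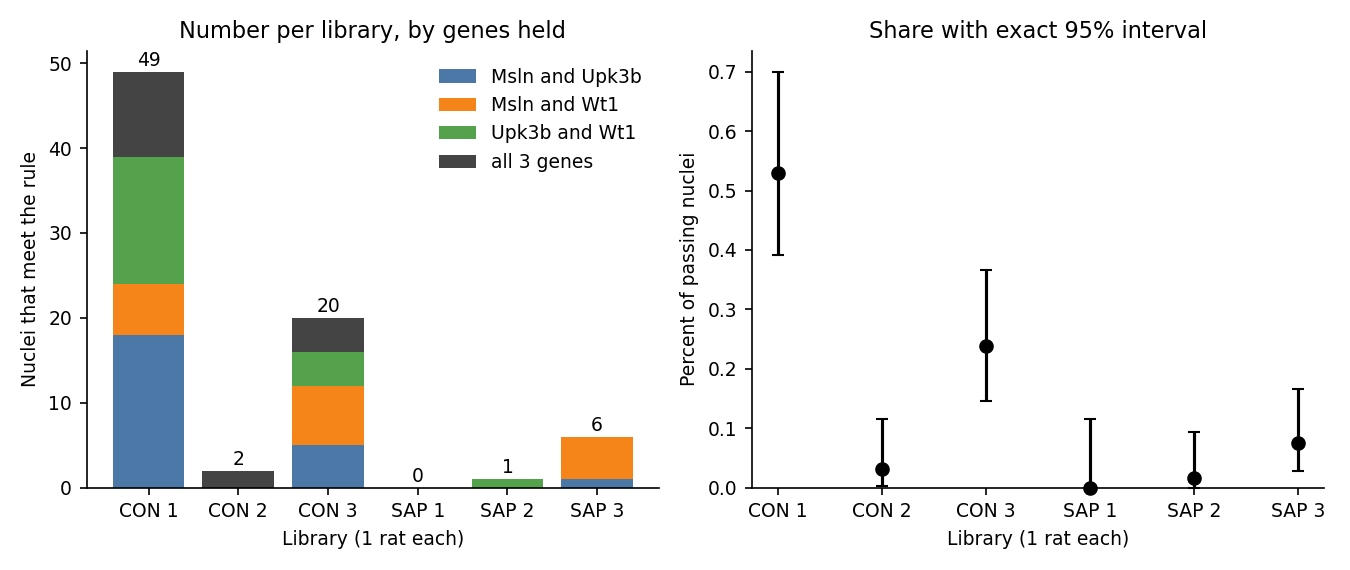
Nuclei that met the rule in each library (left, bars stacked by the pair of genes held, totals above) and their percent of passing nuclei (right, points with exact binomial 95% intervals). CON_1 and CON_3 hold 69 of the 78 nuclei, and CON_2 lies among the SAP libraries.

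The mean share was 0.267% ± 0.250 (SD, n = 3) in CON and 0.0309% ± 0.0399 (SD, n = 3) in SAP. CON_1 and CON_3 were above every SAP library but CON_2 was below SAP_3, so the groups overlapped, and the difference did not pass an unpaired two-sided exact permutation test (p = 0.2, where 0.1 is the smallest p of 3 against 3). With every nucleus thinned to 1200 UMIs the shares no longer overlapped (exact permutation p = 0.1). CON_2 was then at 0.0319% and SAP_3 at 0.0253%, with 2 nuclei each. SAP was the lower of each same-numbered CON and SAP library, although nuclei with at least 3 of 16 other mesothelial genes numbered 4 of 6260 in CON_2 and 17 of 5968 in SAP_2. Across all libraries limma on logit shares gave a difference of -1.70 with an adjusted p of 0.197 over the 10 gates when the replicate number was a block and 0.475 when it was not. Gates of other stromal cells overlapped between the groups too. The smooth muscle gate took 5.48% ± 4.27 (SD, n = 3) of CON and 2.84% ± 2.60 (SD, n = 3) of SAP nuclei (exact permutation p = 0.5), and the fibroblast gate took 0.996% ± 0.555 and 0.964% ± 1.30 (SD, n = 3 each, exact permutation p = 1). The endothelial gate had the higher mean in SAP, at 1.75% ± 1.82 against 1.03% ± 0.733 (SD, n = 3 each, exact permutation p = 0.7).

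The 3 rule genes were found in unequal combinations. Msln was held by 58 of the 78 nuclei, Upk3b by 60 and Wt1 by 54, and 16 held all 3. Msln with Upk3b alone was held by 24, Msln with Wt1 by 18 and Upk3b with Wt1 by 20. In CON_1 and CON_3, 43 of 49 and 13 of 20 members held Upk3b, while in SAP_3 only 1 of 6 did. The levels given from here on are CPM, the UMIs of a gene as a share of all UMIs summed over the nuclei of a class in 1 library, on the usual CPM scale. Levels of fibroblast-gate and smooth muscle nuclei are the exception and are pooled over all libraries. Upk3b was at 408, 1171 and 629 CPM in the members of CON_1, CON_2 and CON_3, at 114 CPM (1 UMI) in SAP_2 and at 56.0 CPM (1 UMI) in SAP_3. Msln was at 345, 585 and 629 CPM in the 3 CON libraries, listed at 0 in SAP_2 and at 728 CPM in SAP_3. Wt1 was at 147, 585 and 512 CPM in CON, at 114 CPM in SAP_2 and at 616 CPM in SAP_3. The rule chose nuclei by these genes, so their levels describe the choice. No contrast of SAP with CON is drawn from them, and the Upk3b levels of SAP_2 and SAP_3 are 1 UMI each.

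Just outside the rule were 764 nuclei with UMIs of exactly 1 of the 3 genes, 88 with Msln, 124 with Upk3b and 552 with Wt1. Their median count of UMIs was 2162, against 2551 in members with 2 genes and 1756 in nuclei with none. At least 3 of the 16 other mesothelial genes were found in 7.98% of them, against 83.9% of members with 2 rule genes and 100% of the 16 members with all 3. Of the nuclei with Wt1 alone, 222 of the 552 were in SAP_2, 97 in CON_2 and 89 in SAP_1. The enterocyte gate was met by 33.3% of them, and by 51.8% of all passing nuclei of SAP_2, 2.33% of CON_2 and 22.5% of SAP_1. Only 33 of them had at least 3 of the other mesothelial genes.

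The label was checked on genes that the rule did not use. Of a list of 20 mesothelial identity genes, 16 had a mean CPM over libraries above that of the other 40892 nuclei, 12 of them by more than 10 times. Without its 4 keratins the list has 16 genes, of which the members held a median of 6 and other nuclei a median of 0. At least 3 were found in 68 of 78 members (87.2%) and in 0.597% of other nuclei, and 77 members held at least 1. By library the median was 6 in CON_1, 8 in CON_2, 5 in CON_3 and 4.5 in SAP_3, and 0 in the SAP_2 nucleus. Members were deeper than other nuclei, with a median of 2525 against 1760 UMIs, so detection was also read with every nucleus thinned to 1200 UMIs. Gpm6a, a membrane glycoprotein first known from neurons, had a UMI in 82.1% of members (exact 95% interval 71.7% to 89.8%) and 65.4% after thinning, against 1.52% and 0.846% of other nuclei. In 676 nuclei that met only a B lymphocyte gate, a class that should lack it, the share was 1.33% at a median of 1773 UMIs. The mucin Muc16 was found in 66.7% of members, 0.594% of other nuclei and 1.18% of B nuclei, and the transcription factor Bnc1 in 20.5%, 0.0465% and 0 of 676.

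**Figure D2:**
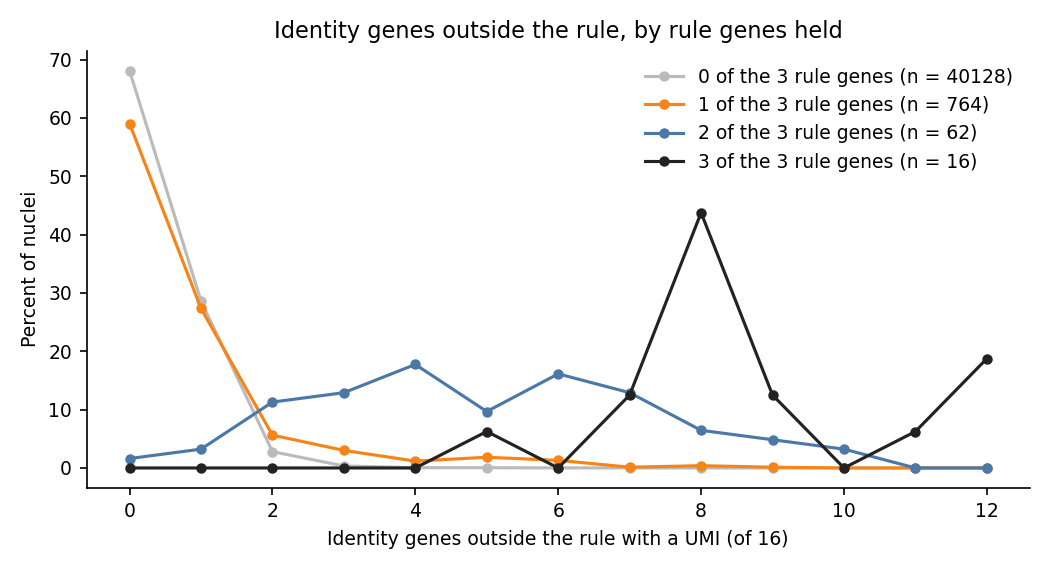
Percent of nuclei (y axis) by the number of 16 mesothelial identity genes outside the rule that had a UMI (x axis), for nuclei with 0, 1, 2 or 3 of the rule genes. Most nuclei with 0 or 1 rule gene held none of the 16, and the 16 nuclei with all 3 rule genes held at least 5.

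Of the 4 keratins on the identity list, only Krt7 had a mean CPM over libraries above that of other nuclei. Krt8 was at 735, 0 and 233 CPM in CON_1, CON_2 and CON_3 and at 572 and 280.0 CPM in SAP_2 and SAP_3, and its mean of 364 CPM was below the 726 CPM of other nuclei. Krt18 and Krt19 had mean levels of 67.8 and 127 CPM, against 75.2 and 182 CPM in other nuclei. With UMIs pooled over libraries the direction turned for both, at 118 and 251 CPM against 83.8 and 202 CPM, and after thinning both were found in a larger share of members than of other nuclei, for Krt18 in 20.5% and 8.45%. Krt7, a keratin of simple epithelia other than that of the gut, was at 142 CPM against 25.5 CPM. Tcf21 and Dmkn had UMIs in 1 and 2 members.

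Transcripts of other cell types were also present in these nuclei. Of the 78 members, 37 met at least 1 other gate, with 17 at the T lymphocyte gate, 16 at smooth muscle, 12 at enterocyte, 9 at fibroblast, 6 at endothelium, 3 at macrophage and 2 at B lymphocyte, and none met the adipocyte or the glial and neuronal gate. In other nuclei these gates were met by 10.97% (T lymphocyte), 4.64% (smooth muscle), 19.1% (enterocyte) and 1.11% (fibroblast), against 21.8%, 20.5%, 15.4% and 11.5% of members. The 10 smooth muscle genes together were at 4998, 878 and 1537 CPM in the members of CON_1, CON_2 and CON_3 and at 458 and 392 CPM in SAP_2 and SAP_3, with Myh11 the most abundant. Defa24, a defensin of Paneth cells, had UMIs in 93.6% of members and 85.9% of other nuclei. Of the adipocyte genes, Plin1, Lep and Fabp4 had no UMI in any member and Adipoq had one in 5.13% of members. Of 8 acinar pancreas genes in the tables, 6 had no UMI. No doublet caller was run, and nuclei that met other gates were left out as an alternative instead.

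Against all other nuclei, 274 of 6158 genes (4.45%) were past a ratio of 4 of the mean library CPM and higher in each of the 3 libraries with at least 5 members. Another 43 of the 6158 (0.698%) were lower by at least the same factor and lower in each, a count in which a 0 in a library of few UMIs enters the mean as 0 and which for low genes the depth does not resolve. The genes counted had a UMI in at least 15% of members, and since the nuclei were chosen by transcripts of the same cells these numbers describe the class and carry no test. With fibroblast-gate nuclei as the comparator in place of all others, 134 genes were past the ratio.

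With the rule's own genes left out, the 25 genes with the largest ratios, from 47.2 to 349, had UMIs in 19.2% to 100% of members and at most 9.14% of other nuclei (the plot of 25 genes with the largest ratio). Bnc1, Gpm6a, Nkain4, Pkhd1l1, Muc16, Lrrn4, Efemp1 and Aldh1a2 are on the identity list, and the other 17 were not. The order depended on the mean over libraries. With UMIs summed over libraries Igfbp6 and Cfb were above Gpm6a (log2 ratios 7.52 and 7.05 against 6.79). Gpm6a was at 802, 4389.8 and 4750.4 CPM in CON_1, CON_2 and CON_3 and at 336 CPM in SAP_3, against 9.69 CPM on average in other nuclei. Muc16 was at 270.2, 878 and 862 CPM in CON and at 280.0 CPM in SAP_3, against 2.85 CPM. Pkhd1l1, a large membrane protein related to fibrocystin, was at 312, 2341 and 838 CPM in CON and at 616 CPM in SAP_3, against 4.70 CPM. For these genes even the lowest of the 4 libraries was far above the other nuclei, and the SAP_2 nucleus had no UMI. In all, 23 of the 25 genes had no UMI in that nucleus.

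**Figure D3:**
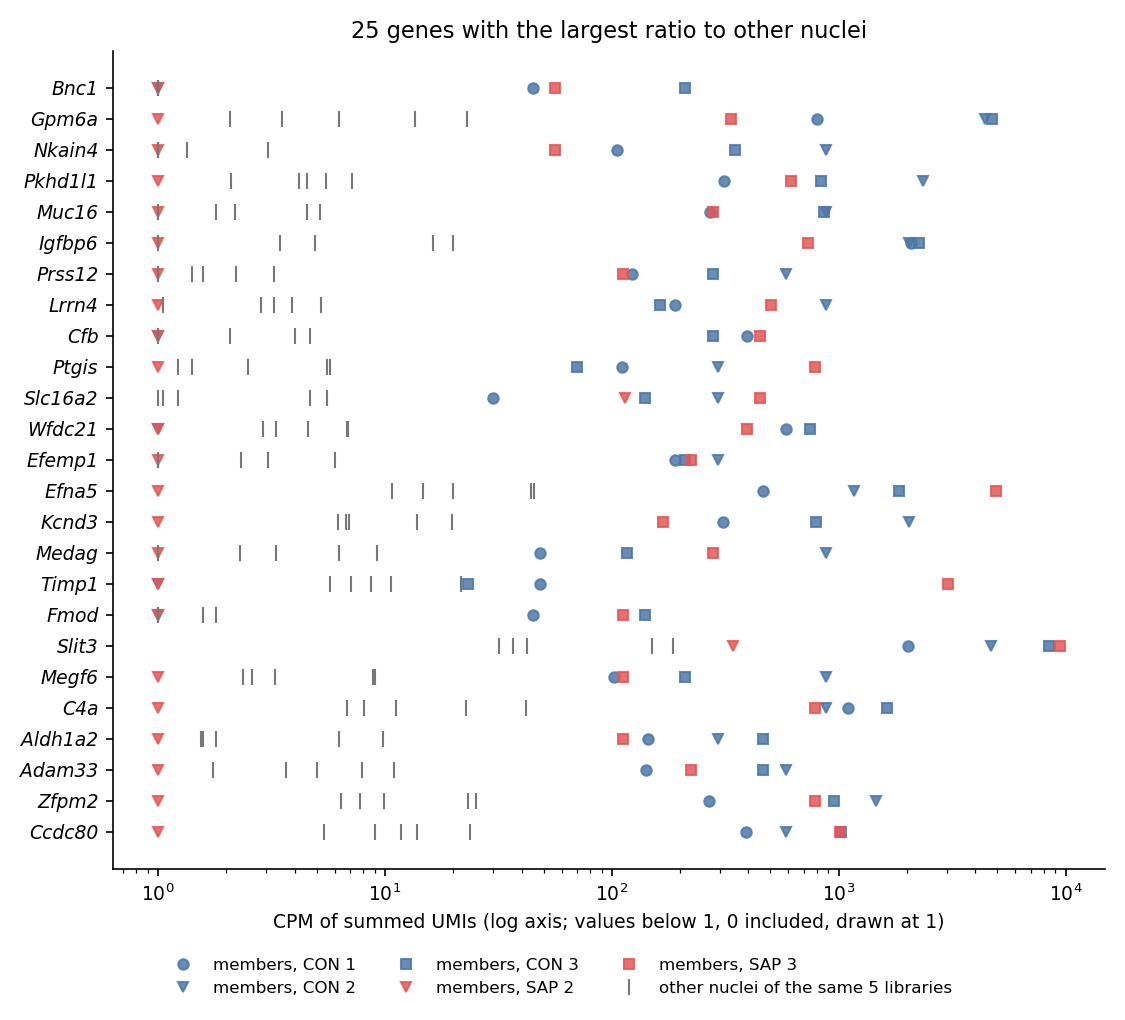
Level in CPM (log axis) of the 25 genes with the largest ratio to other nuclei, with 1 point for the members of each library and grey ticks for the other nuclei of the same libraries. Points of CON_1, CON_3 and SAP_3 lie right of the ticks throughout, while the SAP_2 nucleus is at 0 for 23 genes. The genes were chosen to be above the other nuclei in each of CON_1, CON_3 and SAP_3.

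Slit3, a secreted guidance ligand, had a UMI in all 78 members and in 9.14% of other nuclei, and 87.2% and 5.94% after thinning. Its level was 2023, 4682 and 8476 CPM in CON, 343 CPM in the SAP_2 nucleus and 9409 CPM in SAP_3, against 1031 CPM in fibroblast-gate nuclei and 549 CPM in smooth muscle. Igfbp6, which binds and restrains insulin-like growth factor II, was at 2077, 2049 and 2259 CPM in the CON libraries and at 728 CPM in SAP_3. Fibroblast-gate nuclei had 210.1 CPM of Igfbp6. Efna5, a membrane-anchored ephrin ligand, was at 465, 1171 and 1839.6 CPM in CON and at 4928 CPM in SAP_3. The prostacyclin synthase Ptgis was at 111, 293 and 69.9 CPM in CON and at 784 CPM in SAP_3. SAP_3 was the highest library for Slit3, Efna5 and Ptgis and the lowest, SAP_2 aside, for Igfbp6 and Gpm6a.

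Compared with fibroblasts, 4 of the 25 genes (Bnc1, Pkhd1l1, Wfdc21 and Fmod) had no UMI in fibroblast-gate nuclei and 17 of the other 21 were at least 4 times higher in members. The 4 below that ratio were Ptgis, Efemp1, Adam33 and Ccdc80, and the lowest was 1.77 on the log2 scale. The collagen gene Col1a2 was at 144, 293 and 209.6 CPM in CON and 112 CPM in SAP_3, against 707 CPM in fibroblast-gate nuclei, although it was past the ratio to all other nuclei.

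Among the gene lists, the identity list had 9 of its 15 counted genes past the ratio of 4 (20 on the list), and complement had 6 of 8 (13 in the tables), against 4.45% of all genes counted. A gene is counted if it had a UMI in at least 15% of members. The median log2 ratio of the complement genes with enough members was 3.33 (8 genes), against -0.04 over all 6158. Among them were C4a, C1r and C1s of the classical pathway, Cfb of the alternative pathway and Serping1, an inhibitor of C1r and C1s. C4a was at 1096, 878 and 1630.0 CPM in CON and 784 CPM in SAP_3, against 18.1 CPM in other nuclei. Factor B (Cfb) was at 393, 0 and 279 CPM in CON and 448 CPM in SAP_3, against 2.44 CPM. C1r was at 306, 0 and 326 CPM in CON and 448 CPM in SAP_3, and fibroblast-gate nuclei were at 377 CPM. The central component C3 was at 36.0, 0 and 0 CPM in CON and 56.0 CPM in SAP_3. It was in too few members to be counted, with a UMI in 6 of 49, 0 of 20 and 1 of 6 nuclei of CON_1, CON_3 and SAP_3.

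Of the retinoid genes, Aldh1a2, which makes retinoic acid, was at 144, 293 and 466 CPM in CON and 112 CPM in SAP_3, against 4.19 CPM in other nuclei. Of 12 counted secreted growth factors and their regulators, Igfbp6, Bmper and Fgf18 were past the ratio. Fgf9, a mesothelial growth factor, and Rspo1, a Wnt amplifier, were absent from that count because SAP_3 had no UMI of either. Fgf9 was at 165 CPM (55 UMIs), 1171 CPM (4 UMIs) and 419 CPM (18 UMIs) in CON, and Rspo1 at 171 CPM (57 UMIs), 293 CPM (1 UMI) and 512 CPM (22 UMIs). Upk1b, another uroplakin, was at 162, 585 and 163 CPM in CON and also had no UMI in SAP_3. At the depth of SAP_3, where 1 UMI is 56.0 CPM, a count of 0 allows up to 168 CPM, so the absence of Upk1b and Fgf9 from SAP_3 was not resolved against CON_1, that of Upk1b not against CON_3 either, and that of Rspo1 lay barely past the limit in CON_1.

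The remaining lists are given over their counted genes in the same way. Surface and hyaluronan genes gave 2 of 5 (Muc16 and Gpc3), and the hyaluronan synthases Has2 and Has3 had no UMI. Extracellular matrix gave 5 of 20 (Col1a2, Col3a1, Col5a1, Col6a2 and Sparc) and mesothelial-to-mesenchymal transition gave 3 of 10 (Zeb1, Vim and Tgfbr2), while Snai1 and Twist1 had no UMI. Junction and polarity genes gave 1 of 16, the P-cadherin gene Cdh3, at 57.0, 293 and 209.6 CPM in CON and 504 CPM in SAP_3, and the list's median log2 ratio of 0.02 was close to that of all genes. Receptors of the interleukin-6 family (Osmr, Il6r and Il6st) and Timp1 were 4 of 5 acute phase and STAT3 genes, with a median log2 ratio of 2.42. For Timp1 this rested on SAP_3, without which its log2 ratio fell from 5.85 to 1.15. Osmr was at 33.0 and 23.3 CPM in CON_1 and CON_3 against 672 CPM in SAP_3 and 205 CPM in fibroblast-gate nuclei. A UMI of Osmr was in 8 of 49, 0 of 2 and 1 of 20 CON nuclei and in 5 of 6 of SAP_3. It was therefore counted only through SAP_3, and the count of 4 of 5 and the median include it. Klf9 was 1 of 5 glucocorticoid response genes. Except for the MHC lists, most genes of the next lists were in too few members to be counted. Of those counted, none of 3 cytokine, chemokine and adhesion genes, 4 coagulation, 5 immediate early, 6 MHC class II and 4 cell cycle genes was past the ratio, and Il6, Ccl2 and Cxcl10 had no UMI. Interferon response genes had 2 of 3 past it on the lower side (median log2 ratio -2.25) and MHC class I processing genes 1 of 8 (-0.894). Neither list had a gene past it on the higher side. Over all genes counted 0.698% were past it on the lower side, with the limit of depth given above. On the lower side Defa24 of Paneth cells was below the other nuclei of the same library in each of the 5 libraries, at 7943, 585 and 1281 CPM in CON_1, CON_2 and CON_3 and 572 and 224 CPM in SAP_2 and SAP_3, against 39341, 2077, 3671, 1937 and 2019 CPM.

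Whether SAP changed the transcripts of these nuclei could be tested only thinly. Only CON_1, CON_3 and SAP_3 had at least 5 members, so the planned fit of SAP against CON had 1 SAP library and was not run. Over the 5 libraries with any member, edgeR's quasi-likelihood test called 0 of 229 genes (0%) at an adjusted p under 0.05, with 14 at an unadjusted p under 0.05, and DESeq2 called 0 with 17. Slit2, a guidance ligand of the same family as Slit3, had the lowest p (edgeR, adjusted p = 0.528), with 95, 3 and 58 UMIs in CON_1, CON_2 and CON_3 and 0 in both SAP libraries. The count of 0 in the SAP_2 nucleus allows a level above that of CON_1. Gpm6a (log2 fold change -3.64, adjusted p = 0.789) had no UMI in SAP_2 and 336 CPM in SAP_3, below each CON library, without passing the test. On the higher side the lowest p among genes without overlap belonged to Pabpc1, which encodes a poly(A) binding protein (log2 fold change 2.71, adjusted p = 0.528 by edgeR).

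With nuclei chosen by at least 3 of the 16 other mesothelial genes instead, among libraries with at least 5 such nuclei (17 in SAP_2 and 58 in SAP_3), edgeR called 0 of 10598 genes, with 253 at an unadjusted p under 0.05. Without the SAP_2 nucleus, SAP_3 alone stood against the 3 CON libraries, and edgeR called 15 of 1243 genes (1.21%), all higher, on the assumption that SAP libraries vary as CON libraries do. They were Slpi, Timp1, Adam12, Osmr, Pvr, Il4r, Pkd2, Zg16b, Ikzf4, Hif1a, Pid1, Sdc4, Jak2, Cebpd and Sdk1. With 1 SAP library the expression filter admits a gene on its level in that library alone. None of these genes reached the filter's level in a CON library, so each entered through SAP_3, where it was high. Slpi had no UMI in the CON libraries at all. The filter thus favoured calls on the higher side, and the fold changes below describe SAP_3 and are given without a test. Osmr, the oncostatin M receptor, had 11 UMIs in CON_1 (33.0 CPM), 0 in CON_2, 1 in CON_3 (23.3 CPM) and 12 in SAP_3 (672 CPM, exact Poisson 95% interval 347 to 1174 CPM), a log2 fold change of 4.12. Timp1, an inhibitor of metalloproteinases, had 16, 0 and 1 UMIs in CON and 54 in SAP_3, a log2 fold change of 5.95. Jak2, the kinase that signals for receptors of this kind, had 42, 0 and 3 UMIs in CON and 22 in SAP_3 (log2 fold change 3.34). Hif1a, the oxygen-regulated transcription factor, had 25, 0 and 2 UMIs in CON and 16 in SAP_3 (log2 fold change 3.51). The syndecan gene Sdc4 had 36, 0 and 9 UMIs in CON and 29 in SAP_3 (log2 fold change 3.39). In the other nuclei Sdc4 was at 80.0, 100.5 and 143 CPM in CON and 175, 211 and 184 CPM in SAP, and Hif1a, Pvr, Il4r, Cebpd and Slpi were likewise higher in each SAP library than in any CON library. These calls come from 6 nuclei of 1 rat.

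The 6 nuclei of SAP_3 did not share these UMIs evenly. They had 4040, 3230, 2705, 1504, 3427 and 2950 UMIs in all. In that order their Timp1 UMIs were 2, 2, 2, 1, 46 and 1, so 1 nucleus held 46 of 54. The same nucleus had 2.36% mitochondrial UMIs, against 0.124% to 0.475% in the others, and the part of this in its Timp1 level was not tested. Without that nucleus the level was 554 CPM in place of 3024 CPM, against 48.0 CPM in CON_1 and 23.3 CPM in CON_3. Every one of the 6 had a Timp1 UMI, also after thinning to 1200 UMIs, whereas 12 of 49 nuclei did in CON_1 and 1 of 20 in CON_3, or 5 and 0 after thinning. The Osmr UMIs were 1, 2, 4, 0, 4 and 1, in 5 of 6 nuclei, against 8 of 49 in CON_1 and 1 of 20 in CON_3. The Sdk1 UMIs, of a cell adhesion gene, were 5, 5, 1, 1, 7 and 9. By contrast Slpi, a secreted protease inhibitor, had 17 of its 18 UMIs in the nucleus with most Timp1, and all 13 Pid1 UMIs were in 1 nucleus. In the other nuclei Slpi was at 160.0, 7.10 and 118 CPM in SAP_1, SAP_2 and SAP_3, against 2.00, 0.526 and 3.71 CPM in CON_1, CON_2 and CON_3.

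Set beside CON_1 and CON_3 alone, SAP_3 was at least 4 times the higher of them, with more than 3 UMIs, for 159 of 8305 genes (1.91%). It was at least 4 times below the lower of them for 5 genes (0.0602%), with any level under 3 UMIs set to 3 UMIs. Measured genes had at least 10 UMIs over the 3 libraries. A gene could therefore reach that limit through SAP_3 itself, as Slpi did with 0, 0 and 18 UMIs, which favoured the higher side. Of the 159 genes, 39 remained so when the nucleus with most UMIs of the gene was left out, and 145 when members above 10000 UMIs were. This comparison was set up after the values were seen, has 1 SAP rat and carries no test. The acute phase and STAT3 list gave 3 of 8 measured genes past it (Osmr, Timp1 and Cebpd) and all 8 above both CON libraries, against 2921 of the 8305 genes measured. Cebpd, with 4 and 3 UMIs in CON_1 and CON_3, was measured only through its 8 UMIs in SAP_3, so its place in the count follows from that library. Cebpd had 8 UMIs in 2 of the 6 nuclei, 6 of them in 1 nucleus, without which it was at 134 CPM and no longer past the ratio. In the other nuclei Cebpd was at 9.18, 14.6 and 17.2 CPM in CON and at 41.8, 44.4 and 33.5 CPM in SAP. Osmr was there at 1.27, 1.58 and 8.38 CPM in CON and at 5.59, 4.84 and 23.2 CPM in SAP. The 13 genes of the list together were also higher there in each SAP library, at 664, 714 and 848 CPM against 318, 474 and 548 CPM in CON. Whether the list as a whole rose more in members than in other nuclei was not tested. Pim1 was above both CON libraries by 1 UMI. The median log2 difference of the 8 genes of the list from the CON mean was 1.03, against -0.12 over all genes. Stat3 itself was at 291 and 536 CPM in CON_1 and CON_3 and 560.0 CPM in SAP_3, within the counting interval of CON_3, and Il6st, the shared signalling receptor gp130, was at 162, 373 and 1008 CPM. Complement genes were above both CON libraries for 8 of 11 and past the ratio for none.

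**Figure D4:**
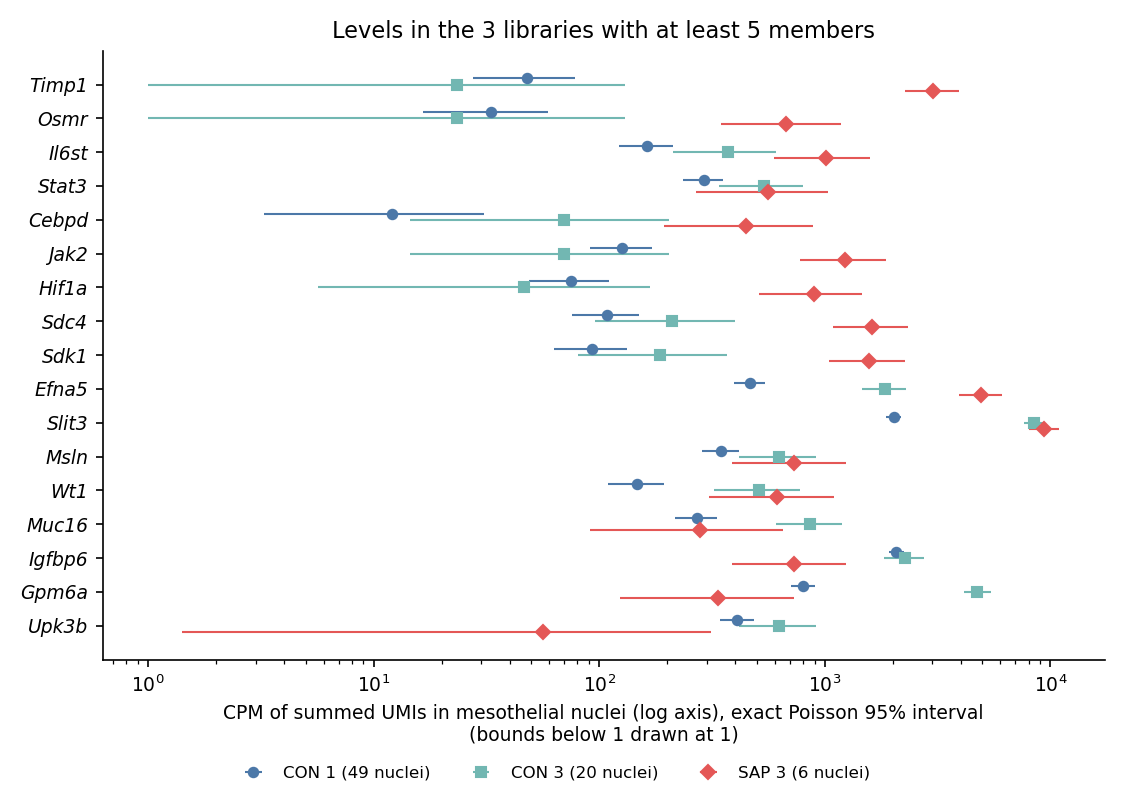
Level in CPM (log axis) of named genes in the mesothelial nuclei of CON_1, CON_3 and SAP_3, with exact Poisson 95% intervals that cover counting error only. Timp1 and Osmr in SAP_3 are at 3024 and 672 CPM and their intervals lie clear of both CON libraries, while Msln, Wt1 and Slit3 in SAP_3 overlap with CON_3.

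Identity genes were below both CON libraries for 8 of 15, junction genes for 10 of 16 and interferon response genes for 5 of 5. Over all genes this held for 3477 of 8305. The lower ratio could be reached only by genes of high level in both CON libraries, because of the limit of 3 UMIs in SAP_3. Gpm6a was at 336 CPM (6 UMIs, in 3 of 6 nuclei) against 802 and 4750.4 CPM, and Igfbp6 at 728 CPM (13 UMIs, in 4 of 6 nuclei) against 2077 and 2259 CPM. The 5 genes past the ratio on the lower side were Defa24, Tpm1, Myh11, Crip1 and Tcf7l2. Tpm1 had no UMI in SAP_3, against 1243 and 1164 CPM in CON_1 and CON_3, and Myh11 was at 112 CPM (2 UMIs) against 1195 and 745 CPM. Myh11 is on the smooth muscle list, whose sum was lower in these nuclei as given above, and the part of that in the difference was not tested. Tpm1 is not on that list, was found in 39 of 49 and 15 of 20 nuclei of CON_1 and CON_3, and was at 275 CPM in the other nuclei of SAP_3.

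The last comparison asked whether the SAP effect in mesothelial nuclei differed from that in the other nuclei of the same libraries. With library as a block, CON_1, CON_3 and SAP_3 gave 6 sums and 1 residual degree of freedom. The SAP arm was 1 library, so the spread came from the CON libraries alone and SAP rats were assumed to vary like them. In this fit edgeR called 2 of 20660 genes (0.00968%), with 457 at an unadjusted p under 0.05. Timp1 was higher by 4.93 on the log2 scale (adjusted p = 0.000425). Its level in the other nuclei was 10.7, 5.70 and 7.11 CPM in CON and 21.1, 8.66 and 21.7 CPM in SAP. Slit2 was the other, with a level of 285 CPM in CON_1, 878 CPM in CON_2 and 1351 CPM in CON_3, in 34 of 49, 2 of 2 and 14 of 20 nuclei. It had no UMI in the 1 nucleus of SAP_2 or the 6 of SAP_3, and the 0 of SAP_3 against the limit of 3 UMIs is at least 1.70-fold lower than CON_1 and 8.04-fold lower than CON_3 (edgeR, adjusted p = 0.0196 for the difference). In the other nuclei Slit2 was at 7.81, 9.65 and 31.5 CPM in CON and 8.47, 9.62 and 35.2 CPM in SAP. Its relative Slit3 did not follow, at 2023 and 8476 CPM in CON_1 and CON_3 and 9409 CPM in SAP_3. With all 5 libraries in the fit Timp1 and Fgf9 were called (edgeR, adjusted p = 0.0265 each) and Slit2 was not (adjusted p = 0.0518), and with the replicate number as a block neither was called. With fibroblast-gate nuclei as the comparator Slit2 was called and Timp1 was not. The Timp1 difference stayed about as large, at 4.27 on the log2 scale with that comparator and 5.00 with the replicate block.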

How the data were processed

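The deposited values are whole-number UMI counts, unnormalized, which the authors made with dnbc4tools for each nucleus. The submitters' processing notes list mRatBN7.2 and Seurat 4.3.0. The 6 libraries held 90461 barcodes and 17367554 to 31397724 UMIs, and 40970 nuclei passed the study's limits. 1 UMI of the summed members was worth 3.00 CPM in CON_1, 293 in CON_2, 23.3 in CON_3, 114 in SAP_2 and 56.0 in SAP_3, which sets the precision of each level. The members, gates and 27 gene lists were chosen with earlier results of these data known. Named genes were the rule's, the 25 of largest ratio, called genes, those of lowest unadjusted p without overlap, and list members; the 5 genes lowest in SAP_3 follow from a comparison set up after the values were seen.

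Counts were summed per library and class and fitted with edgeR 4.0.16 (filterByExpr, TMM, robust; called at an adjusted p under 0.05 and a log2 fold change of at least 0.5 in size) in R 4.3.3, with DESeq2 1.42.0 as an alternative, and shares with limma 3.58.1 (offset of 0.5 nuclei). The planned fit of SAP against CON needed 2 libraries per group with at least 5 members and could not be run, so the fit over all libraries with a member, planned as an alternative, took its place. Python 3.11.15, numpy 2.4.6, scipy 1.17.1 and pandas 2.3.3 were used. In the simulations all libraries shared 1 profile with a fixed spread, without the differences seen among the real libraries. Recovery in the real data can be lower, and a lack of calls there does not exclude changes of the sizes simulated. On simulated data the 5-library fit of SAP against CON called 33 of 51 changes of 4-fold and 78 of 78 of 8-fold, among 342 genes, with 11 false calls. The 3-library fit of the difference called 0 of 100 changes of 4-fold and 0 of 100 of 8-fold, and among genes of at least 100 UMIs it called 39 of 100 of 16-fold and 94 of 100 of 64-fold.

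Libraries of the same replicate number deviated together over 19431 genes (r = 0.602, 0.228 and 0.450, against -0.610 to 0.0687 for other pairs). The numbers were used as a block in alternative fits only, and the main tests did not pair the rats by them. No source says that they mark a shared day or litter. Libraries of a group differed far beyond sampling noise (chi-square per degree of freedom 41.6 to 295). The Stereo-seq data were not analysed here, and results for some genes are not reported here.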

Additional observations from a re-analysis of the deposited data

Results flagged for a closer look

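The SAP effect on 2 genes differed between mesothelial and other nuclei by a test of the difference itself (edgeR, 3 libraries, 1 of them SAP). With all libraries and the replicate block neither was called (adjusted p = 1 for both, log2 difference 5.00 for Timp1), and against fibroblast-gate nuclei Timp1 was not (4.27, adjusted p = 0.0715). It was 4.93 on the log2 scale for Timp1, of which 46 of 54 UMIs in SAP_3 were in 1 nucleus. For Slit2 the fitted difference was -16.07, which depends on the prior count because SAP_3 had no UMI, and the bounds against 3 UMIs were 1.70-fold and 8.04-fold lower than CON_1 and CON_3. Both rest on the 6 nuclei of 1 SAP rat.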

How the results depend on the processing

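The share of mesothelial nuclei was lower in SAP under each of 16 alternatives. With nuclei chosen instead by at least 3 of the 16 other identity genes, the shares were 0.900% in CON and 0.340% in SAP, a smaller relative difference, and the pair CON_2 and SAP_2 turned (4 and 17 nuclei). Only limma on logit shares with the replicate block passed 0.05, before adjustment over gates and not after it (logit difference -1.70, adjusted p = 0.197), and exact tests on 3 against 3 rats could not pass. Leaving out 1 library moved the difference of the means from -0.353 to -0.104 percentage points. Of the planned fits of SAP against CON, 0 genes remained called with the replicate block, DESeq2, RLE size factors, no filter, a mitochondrial limit of 1% or a rule of at least 3 other identity genes. Calls were 1 without scaling beyond the total and 6 with members of another gate left out, and leaving out 1 library gave 0 to 15. The highest, 15, was without SAP_2, and 2 came without CON_2. Leaving out members of another gate also removed SAP_2, whose only member met the enterocyte gate. SAP_3 alone was then the SAP arm, as in the fit without SAP_2, whose called genes all passed the expression filter through SAP_3. The fit on libraries with at least 10 members could not be made. The difference of the SAP effect gave 2 calls in the report's fit, 8 with fibroblast-gate nuclei as comparator, and 0 with all libraries and the replicate block. In that 3-library fit the replicate block and leaving out a library left no degrees of freedom and gave no value. Against other nuclei, 274 genes past the ratio became 134 with fibroblast-gate nuclei and 146 at a fold of 8, 211 with members thinned to 1200 UMIs, 233 without members above 10000 UMIs, 297 with members of at least 3 identity genes, and 262 to 384 without 1 library. For the 25 named genes 62 of 296 log2 ratios moved by more than the spread between libraries and 0 changed sign. The 296 include those at a fold of 8, a threshold that cannot move a ratio. The thinning for genes, the UMI limit, the identity gene requirement among members and the 5-library fit of the difference were chosen after seeing the data. Depth limits the SAP side, where members hold 26590 UMIs in all, 8734 of them from 1 nucleus.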
